A study of Mus musculus with 16 samples.

Results

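The genes described here are 50 very long genes of neurons, or of chromosome sites that break under replication stress, among the 51912 genes listed in counts from the mouse cortex at E15.5. The list was given by name, and it was put together with counts and fold changes of these same mice in view. The genes' levels and differences are therefore given as a description, and the test values printed beside them are values of the fit over all listed genes and not independent evidence. Every member had counts in every mouse, and all 50 reached a mean of 10 CPM (counts scaled to the depth of each library) or more, so none was lost to a filter on low values.

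The mice came from a study of *Knl1*, whose protein is a scaffold of the kinetochore, and of *Trp53*, which encodes p53. In *Knl1* cKO mice, *hGFAP-Cre* deletes floxed *Knl1* (called *Casc5* in the labels) in cortical neural progenitors, and in *Knl1* *Trp53* dKO mice it deletes floxed *Trp53* as well. The ctrl mice were wild type, except T4 and T5, which were heterozygous. The ctrl mice were 2, 6, S1, S3, T3, T4 and T5, the cKO mice were 5, 7, S2 and F3, and the dKO mice were T2, T8, F1 and F7. For S2 there were 2 libraries, whose counts were added together. Litter 1 held mice 2, 6, 5 and 7, litter 2 held S1, S2 and S3, litter 3 held the T mice and litter 4 the F mice. Batch 1 held mice 2, 6, 5, 7, S2 and S3, batch 2 held S1, and batch 3 held the T and F mice. All dKO mice were thus in batch 3. Cells that the transgene does not reach, such as interneurons that migrate in, vessels and microglia, keep both genes. Mice of either sex were used, and the p-values measure the spread between mice.

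Transcription of a gene of this size takes many hours, because the polymerase has to travel its whole length, nearly all of it intron. In the brain, many of the longest genes encode adhesion molecules, receptors and scaffolds of axons and synapses, and they are switched on when a cell leaves the cell cycle and becomes a neuron. Some of them, among them *Fhit*, *Wwox* and *Immp2l*, lie at common fragile sites, where chromosomes tend to break when replication is slowed.

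The members had gene spans between 296 kb for *Fam135b* and 2271 kb for *Ptprd*. Their median was 1105 kb, against 17.5 kb for all protein-coding genes of the annotation. Of the 50, 32 were longer than 1000 kb, and *Fam135b* and *Xkr4* were the only ones below 500 kb. Exons made up a median of 0.919% of the span, between 0.0925% in *Fhit* and 6.58% in *Fam135b*. Together the members held 5.505% of the summed span of protein-coding genes, 0.567% of their exonic length and 6.91% of their counts. Their share of the counts was therefore close to their share of the span and above their share of the exons.

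The libraries were made from total RNA depleted of ribosomal RNA, so unspliced transcripts could be captured. How genes nested in others were counted shows what the values cover. Of 419 protein-coding genes that lie wholly inside another gene on the same strand, 416 were at 0 in every mouse (99.3%), against 213 of 786 that lie inside a gene of the opposite strand only (27.1%) and 3778 of 20588 that lie in neither (18.4%). Inside the members, 189 of 195 listed genes on the same strand were at 0 in every mouse, and 63 of 123 on the opposite strand. Counting over whole gene spans, with strand, leaves nested genes in this way, whereas counting over exons would not. The values of a member are accordingly read as counts over its exons and introns together, and spliced and nascent RNA cannot be told apart. Between genes, levels are compared only per kb of span.

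Promoter sequences are shown for 3 of the members that differed between litters, to let the start sites of an adhesion gene with alternative promoters, of a relative of it on another chromosome and of a receptor phosphatase be read side by side. They are RefSeq's on GRCm38.p6, from 250 bases before to 50 after the start of transcription, and run 5′ to 3′ on the gene's strand, with every CG dinucleotide in capitals. For *Lsamp* (limbic system-associated membrane protein, an IgLON adhesion molecule) 2 starts are shown, which lie 1548 kb apart. The first is at chr16:39984114-39984413 and the second at chr16:41532576-41532875, both on the plus strand. The promoter of *Opcml*, another IgLON gene, is at chr9:27791049-27791348 on the plus strand, and that of *Ptprt*, a receptor tyrosine phosphatase, is at chr2:162661098-162661397 on the minus strand.
Lsamp, first start: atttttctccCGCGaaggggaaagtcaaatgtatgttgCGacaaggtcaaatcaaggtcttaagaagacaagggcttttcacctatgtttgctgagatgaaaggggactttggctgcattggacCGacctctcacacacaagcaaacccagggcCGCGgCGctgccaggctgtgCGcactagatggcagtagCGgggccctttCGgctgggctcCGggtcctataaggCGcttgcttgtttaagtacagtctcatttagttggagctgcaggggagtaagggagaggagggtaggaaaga
Lsamp, second start: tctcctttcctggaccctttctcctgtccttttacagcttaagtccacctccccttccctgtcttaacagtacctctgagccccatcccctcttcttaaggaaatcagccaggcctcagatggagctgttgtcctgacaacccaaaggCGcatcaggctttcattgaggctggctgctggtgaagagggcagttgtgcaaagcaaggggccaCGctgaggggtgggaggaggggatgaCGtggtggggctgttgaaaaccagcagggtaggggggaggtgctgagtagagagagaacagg
Opcml: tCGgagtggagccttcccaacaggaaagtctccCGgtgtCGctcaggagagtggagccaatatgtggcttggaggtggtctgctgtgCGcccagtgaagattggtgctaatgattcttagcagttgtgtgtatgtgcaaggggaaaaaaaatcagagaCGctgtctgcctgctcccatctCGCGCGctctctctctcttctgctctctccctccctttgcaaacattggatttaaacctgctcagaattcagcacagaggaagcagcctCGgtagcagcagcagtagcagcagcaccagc
Ptprt: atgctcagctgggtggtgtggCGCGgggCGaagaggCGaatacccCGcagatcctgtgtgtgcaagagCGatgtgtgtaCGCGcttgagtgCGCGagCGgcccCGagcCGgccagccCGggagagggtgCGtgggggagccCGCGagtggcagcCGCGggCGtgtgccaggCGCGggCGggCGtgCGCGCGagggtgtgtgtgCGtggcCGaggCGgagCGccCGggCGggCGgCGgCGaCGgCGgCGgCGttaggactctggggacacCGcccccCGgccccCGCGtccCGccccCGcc
The first *Lsamp* sequence holds 12 CG and the second 3, that of *Opcml* holds 9 and that of *Ptprt* 46. Of the 50 members, 36 had an entry, with 56 promoters in all. Their median was 12 CG per promoter, against 7 over all 32851 mouse promoters in the table. The letters TATAAA, sought on both strands, were in 3 of the 56 (5.36%) and in 13.6% of all promoters. The letters TGACGTCA, a palindrome known as the cAMP response element, were in 1 of the 56 (1.79%) and in 1.79% of all. These matches describe the windows only.

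In ctrl, *Auts2*, which encodes a nuclear regulator of neuronal development, had the highest level per kb of span, at 7.04 CPM per kb. It was followed by *Ctnna2*, the alpha-catenin of neurons, at 3.85 CPM per kb and by the teneurin gene *Tenm4* at 3.55 CPM per kb. The lowest levels were those of *Ctnna3*, an alpha-catenin best known from heart, at 0.0105 CPM per kb, of *Fhit*, which encodes a hydrolase of diadenosine polyphosphates, at 0.0676 CPM per kb and of the contactin gene *Cntn4* at 0.0926 CPM per kb. The members thus spanned a wide range, although they were chosen for length. Across the 50 members the Spearman correlation of CPM with span was 0.13, as a description of genes that share the same libraries. It was 0.49 over the 12741 protein-coding genes with a mean of 1 CPM or more.

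Total counts were between 399832 and 3266227 per mouse in ctrl, between 4178461 and 8800987 in cKO and between 552186 and 5396803 in dKO, so every cKO mouse was sequenced more deeply than every ctrl mouse. The mean level of *Knl1* was 62.8 ± 13.5 CPM in ctrl (SD, n = 7), 58.2 ± 14.9 CPM in cKO and 49.8 ± 11.7 CPM in dKO (SD, n = 4 each), and that of *Trp53* was 30.5 ± 10.6, 28.3 ± 4.26 and 25.1 ± 5.26 CPM. Counted over the whole gene in whole cortex, neither gene separated the genotypes, mouse S2 having 80.4 CPM of *Knl1*, and the labels could not be checked by them. The 2 libraries of mouse S2 gave the members 6.11% and 6.17% of all counts. Of the markers of cortical cells, all 8 of excitatory neurons and all 5 of intermediate progenitors had counts in every mouse. *Sox2* of radial glia and *Tubb3* of neurons were at 0 in most mice, and both lie in the annotation inside another gene on the same strand.

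The first question was whether the members shifted together between the genotypes. In cKO, 39 of the 50 members had a higher fitted level than in ctrl and 11 a lower one, with a median log2 fold change of 0.27 (quartiles 0.06 and 0.36). Over the 8884 protein-coding genes with a mean of 10 CPM or more the median was 0.04. At an FDR below 0.05 in edgeR's likelihood ratio test, 3 members were higher in cKO and none was lower, where 0.16% of all listed genes were called. Of the 8884 protein-coding genes at this level, 19 were called as higher and 31 as lower. At an unadjusted p below 0.05, 25 members were higher and *Immp2l* was lower, against 6.82% of the protein-coding genes at this level being higher. The members called were a gene of the CNTNAP family, *Cntnap5c*, and a pair of shorter genes, *Xkr4* and *Fam135b*.

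*Fam135b* (ENSMUSG00000036800, chr15:71431609-71727838), whose product is little characterized, was at 55.6, 77.2 and 107 CPM in ctrl (lowest, median and highest). In the cKO mice 5, 7, S2 and F3 it was at 160.5, 154.8, 88.9 and 153 CPM. The cKO mice 5, 7 and F3 were above every ctrl mouse, and S2 lay within the ctrl range. The log2 fold change was 0.74 (standard error 0.17, FDR 0.01015 in edgeR).

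*Xkr4* (ENSMUSG00000051951, chr1:3205901-3671498), a relative of the XK membrane protein family of lipid scramblases, was at 477.9, 519.4 and 654.4 CPM in ctrl. The cKO mice 5, 7, S2 and F3 were at 1017, 885.4, 597.3 and 942.3 CPM. Again S2 lay within the range of ctrl, and the other cKO mice lay above it. The log2 fold change was 0.60 (standard error 0.14, FDR 0.02041 in edgeR).

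*Cntnap5c* (ENSMUSG00000038048, chr17:57769570-58410355), an adhesion gene related to the neurexins, was at 61.4, 78.4 and 126.6 CPM in ctrl. In mice 5, 7, S2 and F3 it was at 221.2, 162.5, 99.3 and 139.6 CPM, so that again only S2 fell within the ctrl range. The log2 fold change was 0.81 (standard error 0.19, FDR 0.0271 in edgeR). Over all listed genes, 83 were called in this fit. Without cKO mice 5 and 7, which were littermates, no member was called among 16 genes in all, and the median log2 fold change of the members was 0.20. With litter as a covariate, 3 members were called, *Fam135b* and *Cntnap5c* as higher and *Cntnap5a* as lower, among 120 genes in all, and the median was 0.13. The quasi-likelihood F test of edgeR called 14 members, 13 of them higher, among 352 genes in all. In batch 1 alone, with 3 mice a group, no member was called among 13 genes, and with wild-type ctrl mice only none among 16. Leaving out 1 mouse at a time, no member was called without cKO mouse 5, 7 or F3, among 17, 24 and 33 genes in all. Without ctrl mouse S3, T4 or T5, 1 member was called, among 64, 45 and 48 genes. Without cKO mouse S2, 12 members were called among 373 genes.

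**Figure D1:**
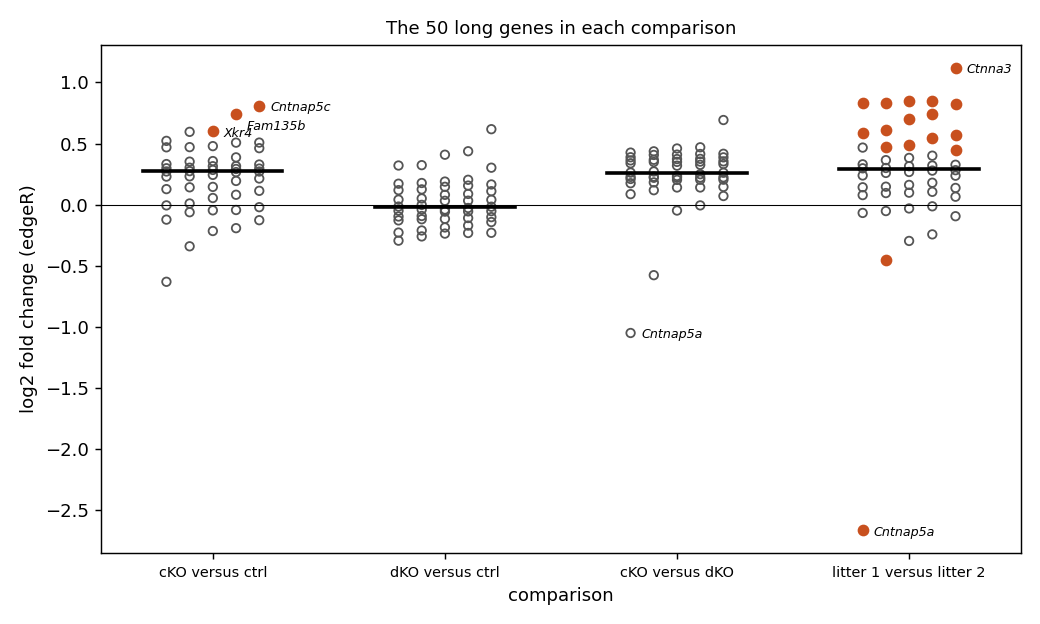
Fitted log2 fold changes of the 50 members in the 3 comparisons of genotypes and in litter 1 versus litter 2. Filled points are at an FDR below 0.05 in edgeR. In cKO versus ctrl 39 members lie above 0, in dKO versus ctrl 23, and in cKO versus dKO 46.

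By role, the adhesion genes were mostly on the higher side in cKO. Of the IgLON genes, whose products are GPI-anchored adhesion molecules of neurons, all 4 had positive log2 fold changes, between 0.05 for *Opcml* and 0.48 for *Lsamp*. *Lsamp* was at 1796, 2239 and 2998 CPM in ctrl and at 4063, 3027, 2135 and 3485 CPM in mice 5, 7, S2 and F3. Every cKO mouse but S2 was above every ctrl mouse, mouse 7 by a small margin. Its FDR was 0.37 in edgeR, and the two-sided exact permutation test over mice gave p = 0.0273.

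*Negr1*, a regulator of neurite growth, was at 1111, 1239 and 1550 CPM in ctrl and at 1858, 1820, 1488 and 1669 CPM in the cKO mice 5, 7, S2 and F3. *Ntm*, the neurotrimin gene, was at 1017, 1163 and 1291 CPM in ctrl and at 1379, 1524, 1126 and 1525 CPM in the same cKO mice. The log2 fold changes were 0.35 (standard error 0.12) and 0.23 (standard error 0.12), with FDRs of 0.47 and 1.0 in edgeR. *Opcml* spread so widely within ctrl, from 681.7 to 1678 CPM, that the cKO mice at 1177, 1107, 798.6 and 1426 CPM lay wholly inside its range.

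Of the other adhesion genes, the 6 cadherin, catenin and CADM genes all had positive log2 fold changes, with a median of 0.25, and the 6 contactin and CNTNAP genes had 5, with a median of 0.30. *Ctnna2* was at 3770, 4343 and 4547 CPM in ctrl and at 5328, 5041, 4779 and 4725 CPM in cKO, with no overlap. The contactin gene *Cntn5* did not overlap either, with ctrl between 486.8 and 634.9 CPM and cKO between 673.7 and 996.8 CPM. With *Robo1*, the receptor for the repellent Slit, and *Kcnd2*, a potassium channel subunit of the Kv4 type, 4 members had every cKO mouse above every ctrl mouse, against 1.0% of the protein-coding genes at this level. For each of these 4, p was 0.00303 in the two-sided exact permutation test, the smallest value that 4 against 7 mice can give. The genes were picked because their groups do not overlap, so this p restates that pattern and is no separate evidence.

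*Tenm4*, a teneurin that acts in adhesion between neurons, was the only member with every cKO mouse below every ctrl mouse, a pattern of 0.304% of the protein-coding genes. It was at 2376, 2543 and 3179 CPM in ctrl and at 2171, 2345, 2290 and 2344 CPM in mice 5, 7, S2 and F3. The log2 fold change was −0.22 (standard error 0.12, FDR 1.0 in edgeR). The other teneurins, *Tenm2* and *Tenm3*, had log2 fold changes of 0.19 and −0.05.

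Among genes of synapses and ion channels the differences were mostly positive as well. All 4 synaptic organizers and receptor phosphatases had positive log2 fold changes, with a median of 0.34, and so did both synaptic scaffolds and all 3 genes of the Kv4 potassium channel complex. *Ptprd*, the longest member and a presynaptic receptor phosphatase, was at 2994, 3788 and 5155 CPM in ctrl and at 5844, 5290, 3774 and 5809 CPM in cKO. *Dpp10*, an auxiliary subunit of Kv4 channels, was at 266.9, 289.5 and 380.2 CPM in ctrl and at 498.5, 499.6, 307.7 and 486.4 CPM in cKO. In both genes the cKO mouse S2 was within the ctrl range and the other cKO mice above it. The log2 fold changes were 0.36 (standard error 0.15, FDR 0.82 in edgeR) and 0.51 (standard error 0.14, FDR 0.12 in edgeR).

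The role group of fragile-site enzymes and an LDL receptor relative had differences in both directions. The other members were not sorted by fragile site, so this group does not stand for all genes at such sites. Of *Fhit*, *Wwox*, *Immp2l*, *Macrod2* and *Lrp1b*, 2 had positive log2 fold changes, and the median was −0.04. *Immp2l*, which encodes a mitochondrial peptidase, was at 82.3, 94.5 and 123.7 CPM in ctrl and at 81.1, 72.3, 86.6 and 63.2 CPM in the cKO mice 5, 7, S2 and F3. Its log2 fold change was −0.34 (standard error 0.14, FDR 0.66 in edgeR). *Fhit* was between 90.9 and 123.7 CPM in ctrl and between 100.2 and 114 CPM in cKO. *Auts2*, with the highest level per kb, was between 7398 and 8653 CPM in ctrl and between 7186 and 8296 CPM in cKO, with a log2 fold change of −0.01. The length of a gene within the list did not order the differences, with a Spearman correlation of 0.01 between span and log2 fold change over the 50 members.

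In dKO, the members lay around their ctrl levels. The median log2 fold change from ctrl was −0.02, with 23 members higher and 27 lower. No member was called at an FDR below 0.05 in edgeR, where 0.0501% of all listed genes were. At an unadjusted p below 0.05, 2 members were higher, against 3.16% of the protein-coding genes being higher, and 1 was lower. None had every dKO mouse above every ctrl mouse, a pattern of 0.304% of the protein-coding genes. DESeq2 called 1 member, as lower, among 9 genes in all.

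The members with an unadjusted p below 0.05 were *Fam135b*, *Cntnap5a* and *Dcc*. *Fam135b* was at 86.2, 95.2, 120.4 and 123 CPM in T2, T8, F1 and F7, with a log2 fold change of 0.41 (standard error 0.15, FDR 1.0 in edgeR). *Cntnap5a* was at 165.8, 148.8, 157.3 and 252.2 CPM in the same mice and between 109.7 and 194.1 CPM in ctrl, with a log2 fold change of 0.44 (standard error 0.16, FDR 1.0 in edgeR). *Dcc*, the receptor for the guidance cue netrin, was at 2869, 3576 and 4523 CPM in ctrl and at 3408, 3240, 2649 and 2947 CPM in dKO, with a log2 fold change of −0.29 (standard error 0.15, FDR 1.0 in edgeR). All 3 teneurin genes had negative log2 fold changes in dKO, between −0.21 and −0.12.

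Between cKO and dKO, 46 members were higher in cKO and 4 lower, with a median log2 fold change of 0.26, against 0.06 for all protein-coding genes at this level. The cKO mice entered both this comparison and that with ctrl, which therefore share their values. No member passed an FDR of 0.05 in edgeR, where 0.052% of all listed genes did. The quasi-likelihood F test called 1 member, and so did the likelihood ratio test without cKO mouse S2. The number of all genes called in these fits is not set beside these calls. They are therefore not read as a result about the members. At an unadjusted p below 0.05, 13 members were higher in cKO and none was lower, and 2.81% of the protein-coding genes were higher. With litter as a covariate this comparison rests on litter 4, the only litter with both genotypes. Its only cKO mouse is F3, so members are not counted from that fit.

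Every cKO mouse was above every dKO mouse for *Ctnna2*, *Pcdh9* and *Exoc4*, 3 of the 50, a pattern of 3.29% of the protein-coding genes. *Pcdh9* encodes a protocadherin and *Exoc4* a subunit of the exocyst, which tethers vesicles at the membrane. *Ctnna2* was at 3799, 3984, 3610 and 4322 CPM in T2, T8, F1 and F7, below the lowest cKO value of 4725 CPM. For each of these genes the two-sided exact permutation test gave p = 0.0286, the smallest that 4 against 4 mice can give. Groups without overlap always have this value here, so it adds nothing to that pattern. *Cntnap5c* had the largest log2 fold change in this comparison, at 0.69 (standard error 0.21, FDR 0.38 in edgeR), with 72.9, 103.5, 93.9 and 112.5 CPM in the dKO mice.

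**Figure D2:**
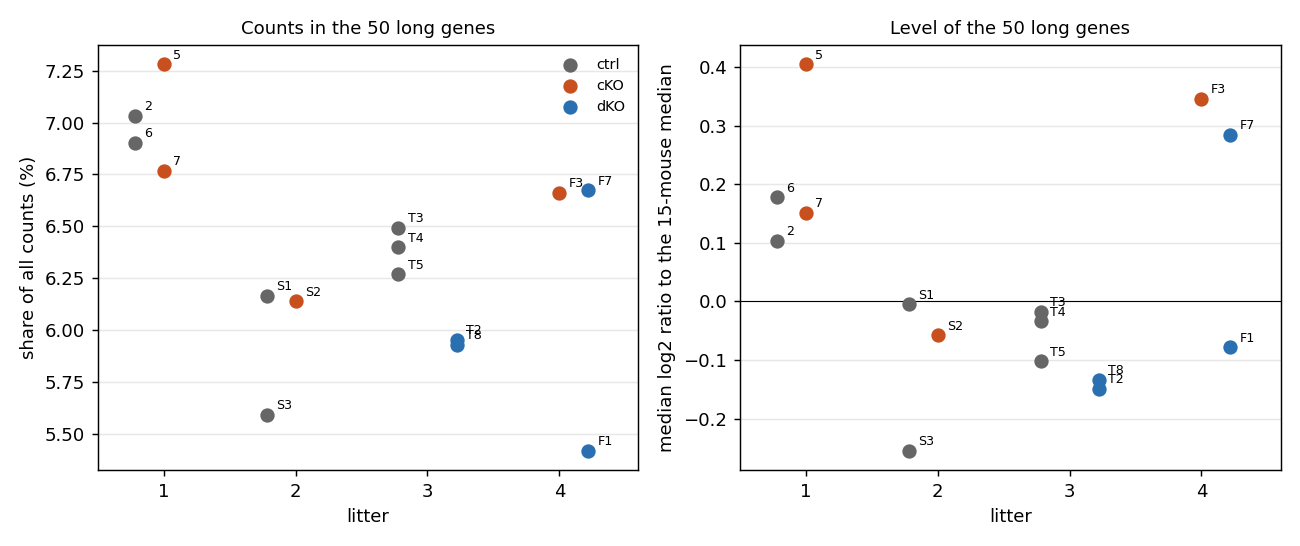
Share of all counts that fell on the 50 members, in percent, for each of the 15 mice, arranged by litter and marked by genotype. Litter 1 lies between 6.77% and 7.28% and litter 2 between 5.59% and 6.17%, without overlap, while the genotypes overlap.

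The sum over the members did not separate the genotypes. The members took 6.41% ± 0.48 of all counts in ctrl (SD, n = 7), 6.71% ± 0.47 in cKO (SD, n = 4) and 5.99% ± 0.52 in dKO (SD, n = 4), and both cKO and dKO were within 1 SD of ctrl. The cKO mean exceeded the dKO mean by 0.72 percentage points, and the mice of these groups overlapped, between 6.14% and 7.28% and between 5.42% and 6.67%. The mean log2 CPM of the members was 9.32 ± 0.14 in ctrl, 9.51 ± 0.19 in cKO and 9.33 ± 0.20 in dKO (SD over the same mice). Over the other protein-coding genes it was 5.57, 5.66 and 5.61. The cKO mean of the members includes *Cntnap5a*, whose levels of 0.813 and 1.25 CPM in mice 5 and 7 pull the log2 mean of these mice down. In bulk tissue, fewer cells of a type and less RNA per cell cannot be told apart.

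Litters 1 and 2 did not overlap. In litter 1, the ctrl mice 2 and 6 had 7.03% and 6.90% of their counts on members and the cKO mice 5 and 7 had 7.28% and 6.77%. In litter 2, the ctrl mice S1 and S3 had 6.17% and 5.59% and the cKO mouse S2 had 6.14%. Ctrl and cKO mice of litter 1 were thus above those of litter 2 alike. Litter 3 was between 5.93% and 6.49%, and in litter 4 mouse F1 was at 5.42% and mice F3 and F7 at 6.66% and 6.67%. The libraries of litter 4 stood apart in their share of ribosomal RNA. Genes of ribosomal RNA took 0.00964% to 0.0458% of the counts in litter 4, against at most 0.0012% in the other mice. Of the uniquely aligned reads, 8.69% to 13.3% fell on no gene in litter 4 and 5.95% to 9.52% in the other mice. In this share mouse F3 overlapped the other litters. Of the counts of nuclear protein-coding genes alone, the members took 6.10% in F1 and 6.02% in S3, so that F1 was then not the lowest mouse, and litters 1 and 2 still did not overlap. The part of these shares in the members' levels was not tested.

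Counted member by member, the same mice stood apart. Of the 50 members, between 37 and 45 were above their median over all 15 mice in each mouse of litter 1, and between 7 and 17 in each mouse of litter 2. In litter 3 the numbers were between 6 and 19. In litter 4, 12 members were above the median in the dKO mouse F1, 40 in the dKO mouse F7 and 43 in the cKO mouse F3. The dKO littermates F1 and F7 were thus far apart.

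**Figure D3:**
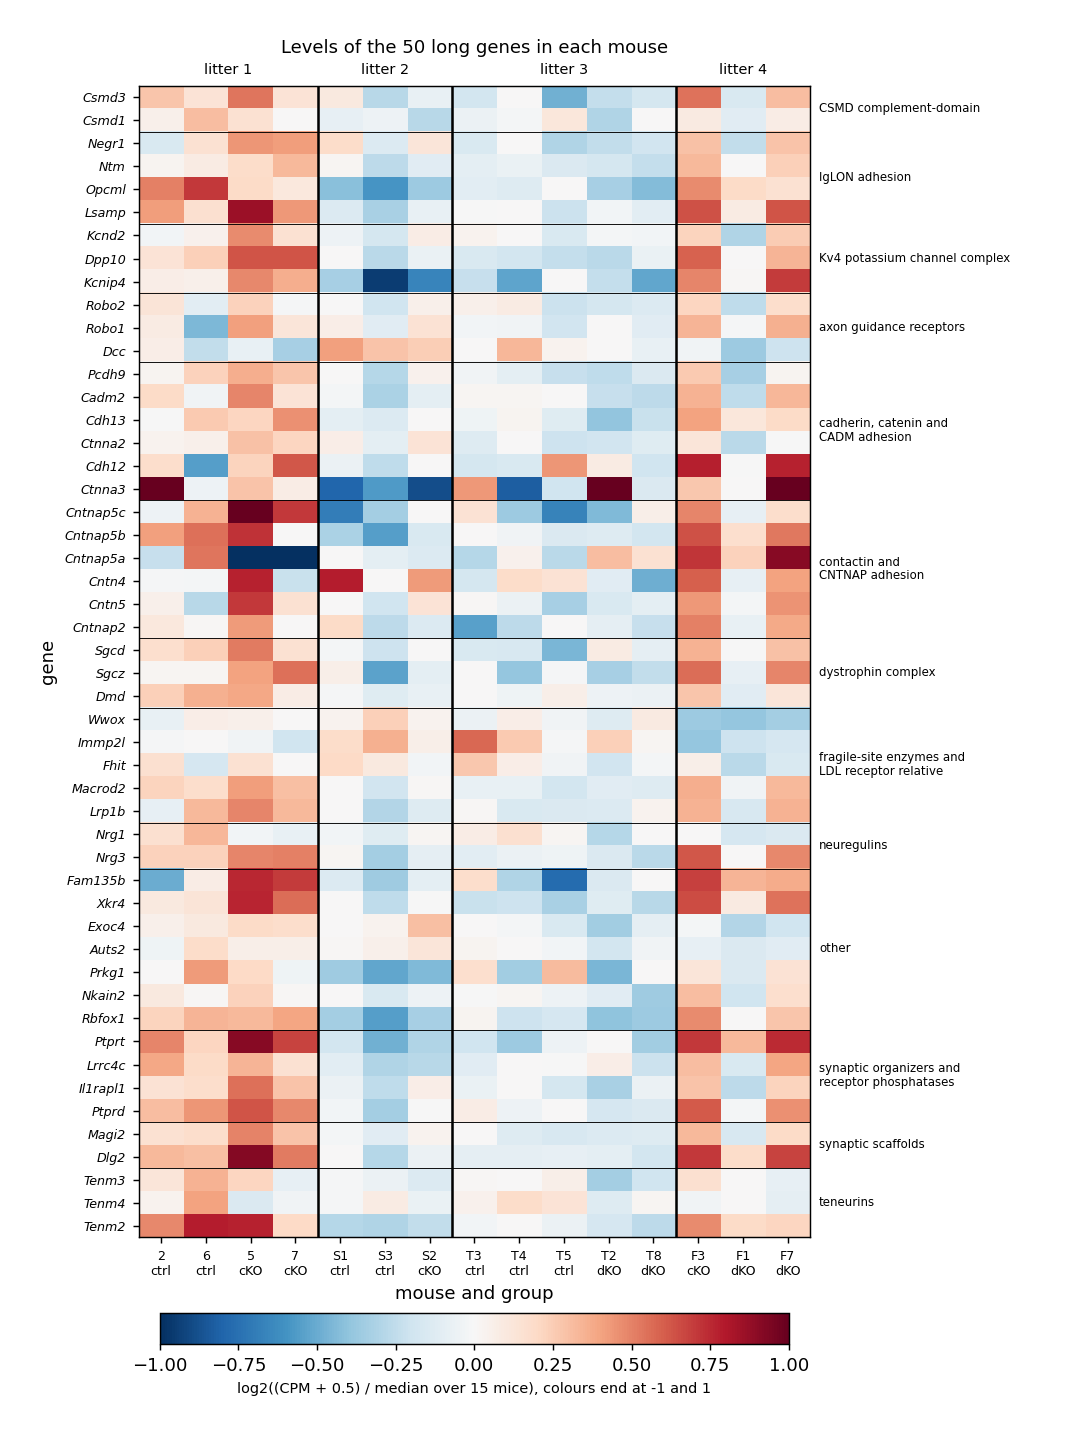
Level of each of the 50 members in each of the 15 mice, as the log2 ratio of its CPM to its median over all mice, with mice grouped by litter and members by role. Most members are above their median in the 4 mice of litter 1 and in F3 and F7, and below it in litters 2 and 3, and *Cntnap5a* is far below it in mice 5 and 7.

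A fit of the 4 mice of litter 1 against the 3 of litter 2, with genotype as a covariate, was added after these values were seen. It was chosen because the members had been seen to differ between these litters, so its fold changes and FDRs describe that difference and are no separate evidence for it. It called 15 members as higher in litter 1 and 2 as lower at an FDR below 0.05 in edgeR, where 1.23% of all listed genes were called. Of the 8884 protein-coding genes with a mean of 10 CPM or more, which all members also reach, it called 277 as higher and 242 as lower. The median log2 fold change of the members was 0.29, against −0.03 for all protein-coding genes at a mean of 10 CPM or more. At an unadjusted p below 0.05, 29 members were higher and 2 lower, and 9.23% of the protein-coding genes were higher. All mice of litter 1 were above all of litter 2 for 24 members, against 8.91% of the protein-coding genes, and below them for *Dcc* and *Immp2l*, a pattern of 8.61%. With ctrl mice only, 5 members were called among 135 genes in all, and without ctrl mouse S3 or cKO mouse S2 there were 10 among 330 and 8 among 238, where the fit of all 7 mice called 636 genes. Of 15 alternatives, the call of *Dcc* was kept in 6, that of *Nrg3* in 7, that of *Cntnap5a* in 9 and that of *Dpp10* in 10, and those of the other 13 members in 11 to 15.

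*Opcml*, with 9 CG in the promoter shown, was at 1460 and 1678 CPM in the ctrl mice 2 and 6 and at 1177 and 1107 CPM in the cKO mice 5 and 7 of litter 1. In litter 2 it was at 769.4, 681.7 and 798.6 CPM in S1, S3 and S2. Litter 1 was above litter 2 in both genotypes, and the log2 fold change was 0.85 (standard error 0.14, FDR 4.158e-07 in edgeR). In litter 3 it lay between 762.3 and 1029 CPM.

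*Ptprt* was at 658.5, 544.5, 880.4 and 748.4 CPM in mice 2, 6, 5 and 7 and at 412.1, 336 and 381.2 CPM in S1, S3 and S2. Its log2 fold change was 0.84 (standard error 0.14, FDR 6.868e-07 in edgeR). *Tenm2*, a teneurin that binds latrophilin across the synapse, was at 3526, 4351, 4306 and 2895 CPM in litter 1 and at 2071, 2045 and 2132 CPM in litter 2, with a log2 fold change of 0.85 and an FDR of 1.411e-06 in edgeR. Every mouse of litter 1 was above every mouse of litter 2 in both genes.

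The other members called as higher in litter 1 came from several roles. *Kcnip4*, a calcium-binding subunit of Kv4 channels, had a log2 fold change of 0.83, and *Dpp10* of the same channel complex had 0.47. *Cntnap5c* and *Cntnap5b* had 0.82 and 0.74, *Rbfox1*, a splicing regulator of neurons, had 0.70 and *Prkg1*, a cGMP-dependent protein kinase, had 0.61. *Lsamp* had 0.59, *Dlg2*, a scaffold of the postsynaptic density, had 0.57, *Ptprd* had 0.54, *Lrrc4c*, the netrin-G1 ligand, had 0.49 and the neuregulin gene *Nrg3* had 0.45. Their FDRs in edgeR lay between 2.516e-06 for *Kcnip4* and 0.04055 for *Nrg3*.

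*Ctnna3* had the highest log2 fold change, 1.12 (standard error 0.25, FDR 0.001604 in edgeR), at levels between 14.9 and 38.6 CPM in litter 1 and between 8.08 and 10.2 CPM in litter 2. It is the member with the fewest counts. *Dcc* was lower in litter 1, at 3576, 2869, 3231 and 2708 CPM in mice 2, 6, 5 and 7 and at 4523, 4144 and 4051 CPM in S1, S3 and S2, with a log2 fold change of −0.45 (standard error 0.13, FDR 0.03861 in edgeR). The FDR of *Dcc* was 0.0552 with RLE size factors, 0.19 in batch 1 only and 0.95 with ctrl mice only. *Cntnap5a* was the other member called as lower, and in that fit it was low in mice 5 and 7 but not in mice 2 and 6.

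Within litters 1 and 2, the median ratios of the members in cKO to ctrl were below the 0.27 of the pooled fit. In litter 1, 35 of the 50 had a higher mean CPM in the 2 cKO mice than in the 2 ctrl mice, with a median log2 ratio of 0.18. Of all protein-coding genes at this level 60.2% were higher, with a median of 0.07. In litter 2, 35 were higher in the cKO mouse than in the mean of its ctrl littermates, with a median of 0.08, where 57.4% of all genes were higher, with a median of 0.03. The same direction in both litters was found for 40 members, 30 of them higher and 10 lower in cKO. The share of all genes with the same direction in both litters was not counted. More genes were higher than lower in cKO in each of these litters. The agreement therefore does not by itself set the members apart. In litter 3, 13 of the 50 were higher in dKO than in ctrl, with a median log2 ratio of −0.10, and of all genes 52.3%, with a median of 0.02. In litter 4, where there was no ctrl mouse, 47 of the 50 were higher in the cKO mouse F3 than in the mean of its dKO littermates, with a median of 0.25, and of all genes 52.6%, with a median of 0.01. No test was made within a single litter, and the fit with litter as a covariate is the one given for cKO versus ctrl.

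Markers of cell types were summed in the same mice. The summed level of the 6 pan-neuronal markers, of which *Tubb3* was at 0 in most mice, was between 3967 and 4529 CPM in ctrl, 4576 and 5685 CPM in cKO and 3678 and 5057 CPM in dKO. That of the 9 interneuron markers was between 2025 and 2609, 2992 and 4346, and 2177 and 2706 CPM. That of the 5 intermediate progenitor markers was between 430 and 521, 338 and 471, and 353 and 445 CPM. The 8 excitatory neuron markers summed to between 1628 and 2007, 1812 and 2301, and 1628 and 2173 CPM. Every cKO mouse was thus above every ctrl mouse in the pan-neuronal and interneuron sums, but not in that of excitatory neurons. The sums add counts over whole gene spans, so the markers with the most counts weigh most in them. In the study's list of changed genes *Erbb4* had a much higher level than *Gad1* and *Sp9*, so it weighs heavily in the interneuron sum. Marker by marker, all 9 interneuron and all 5 fitted pan-neuronal markers had positive log2 fold changes in cKO versus ctrl. Of the 8 excitatory neuron markers, 6 did. The medians were 0.43, 0.35 and 0.12. In cKO versus ctrl, *Eomes* and *Neurog2* of intermediate progenitors were lower, with log2 fold changes of −1.13 and −1.19, and *Gad1* and *Erbb4* of interneurons were higher, with 0.56 for each (FDRs between 5.057e-06 and 0.04079 in edgeR). Of 6 microglia markers, 4 had positive log2 fold changes and 1 was called, as higher. All 7 fitted markers of radial glia had negative log2 fold changes in this comparison, with a median of −0.31, and none was called.

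Between litters, the 8 radial glia markers summed to between 415 and 661 CPM in litter 1 and between 574 and 691 CPM in litter 2, with *Sox2* at 0 in most mice. *Pax6*, a transcription factor of radial glia, was lower in litter 1 by a log2 fold change of −0.82 (FDR 1.254e-06 in edgeR), and so were *Hes1* and *Hes5*, targets of Notch. These were the 3 called of the 7 that could be fitted, of which 5 had lower and 2 higher fitted levels in litter 1. The higher ones were *Slc1a3*, a glutamate transporter, at a log2 fold change of 0.34 (FDR 0.38 in edgeR), and *Fabp7*, at 0.04 (FDR 1.0 in edgeR).

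The 5 fitted pan-neuronal markers had a median log2 fold change of 0.18 in litter 1 versus litter 2, and of these *Snap25*, a protein of synaptic vesicle fusion, was called, at 0.52 (FDR 0.002127 in edgeR). The interneuron markers went the other way, with lower fitted levels in litter 1 for 7 of 9, a median of −0.36 and 1 called, *Dlx6*, a transcription factor of interneurons, at −1.35 (FDR 0.03913 in edgeR). Their sums overlapped, between 2332 and 4346 CPM in litter 1 and between 2226 and 3029 CPM in litter 2. The dKO mouse F7, with 40 members above their median, had an interneuron sum of 2468 CPM, within the range of ctrl. Its pan-neuronal and excitatory neuron sums, 5057 and 2173 CPM, were above those of every ctrl mouse. The part of these cell types in the members' differences was not tested.

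*Cntnap5a* (ENSMUSG00000070695, chr1:115684756-116587323, plus strand), another relative of the neurexins, stood apart from all other members. In the cKO mice 5 and 7 of litter 1 it had 4 and 5 counts, or 0.813 and 1.25 CPM. In the other 13 mice it was between 109.7 and 252.2 CPM, with a median of 138.3 CPM. The other cKO mice, S2 and F3, were at 122.1 and 220.2 CPM, and the ctrl littermates 2 and 6 at 114.2 and 194.1 CPM. The gene was thus nearly absent from 2 littermates and at the usual level in the remaining cKO mice. This was noticed after its values were seen.

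**Figure D4:**
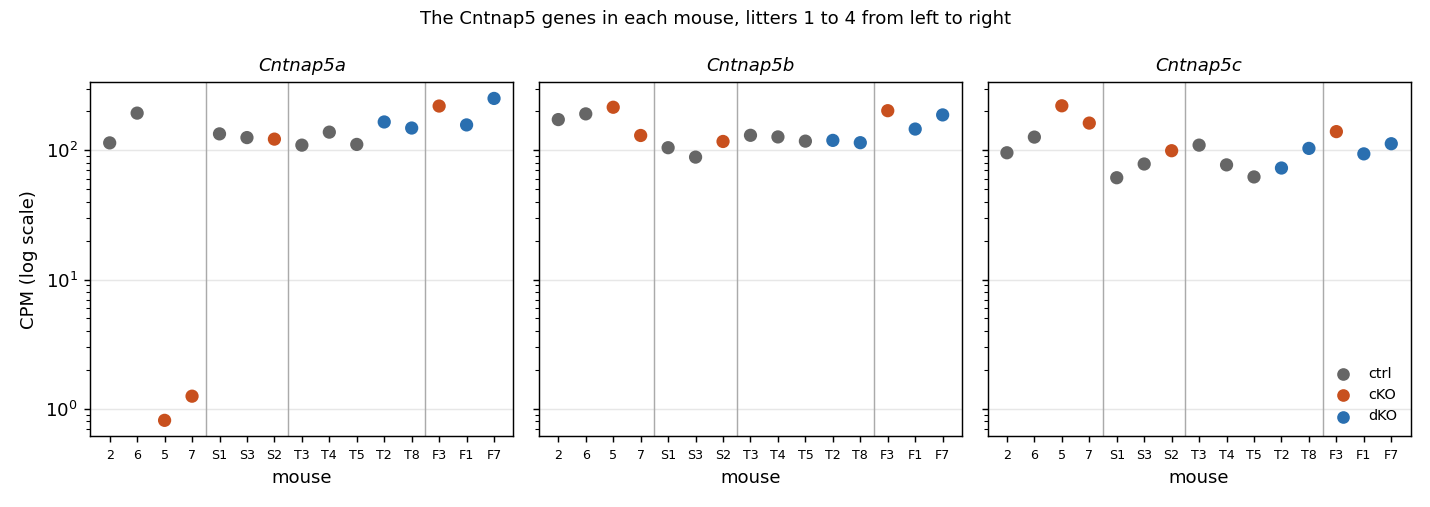
CPM of *Cntnap5a*, *Cntnap5b* and *Cntnap5c* in each of the 15 mice on a log scale, with mice marked by genotype. *Cntnap5a* is at 0.813 and 1.25 CPM in the cKO mice 5 and 7 and at 109.7 CPM or more in the others, while its relatives are not low in these mice.

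Other genes were not low in these mice in the same way. Of 8465 genes with 5 CPM or more in each of the other 13 mice, *Cntnap5a* was the only one for which both mice 5 and 7 were below 10% of the lowest of the others. Over all pairs of mice, 3 genes showed such a pattern in some pair. No gene within 6 Mb on either side with a mean of 5 CPM or more was near 0 in mice 5 and 7, the fewest counts being 11. *Dsel*, 3820 kb before it, was at 22.4 and 19.8 CPM in mice 5 and 7 and between 7.68 and 27.3 CPM in the others, and *Tsn*, 1707 kb after it, was at 37.2 and 37.3 CPM and between 23.1 and 59.7 CPM in the others. *Inhbb* was slightly below the lowest of the others in both mice, at 9.55 CPM in mouse 5 against 10.9 CPM, and *Clasp1* was above the highest, at 671.6 and 686.9 CPM against 671.5 CPM. The relative *Cntnap5b* was between 117 and 215.5 CPM in all 4 cKO mice and between 88.6 and 191.5 CPM in ctrl.

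In the fit of cKO versus ctrl, *Cntnap5a* had a log2 fold change of −0.63 (standard error 0.68, FDR 1.0 in edgeR). The cKO mice had a mean of 86.1 CPM with an SD of 106 CPM, against 132 ± 29.4 CPM in ctrl (SD, n = 7). With litter as a covariate it was −2.22. The log2 ratio of cKO to ctrl was −7.22 in litter 1 and −0.09 in litter 2, where S2 is the only cKO mouse, and the gene was picked out for this pattern, so no test is given. What sets mice 5 and 7 apart was not tested.

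**Figure D5:**
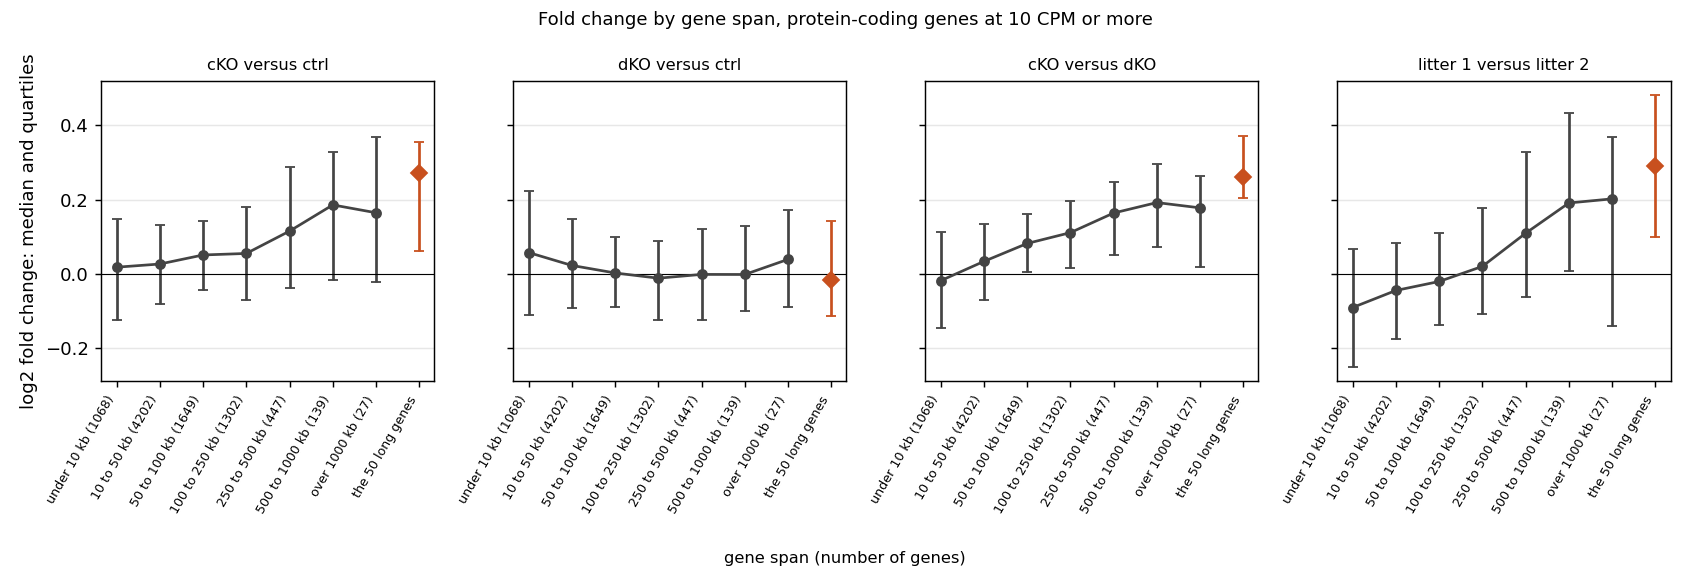
Median log2 fold change of protein-coding genes with a mean of 10 CPM or more in bins of gene span, with the members left out of the bins and shown beside them, for the 3 comparisons of genotypes and for litter 1 versus litter 2. From the shortest to the longest bin the median goes from 0.02 to 0.16 in cKO versus ctrl and from −0.09 to 0.20 between litters, and it stays between −0.01 and 0.06 in dKO versus ctrl.

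Other long genes differed in the same directions. Over protein-coding genes that are not members, the median log2 fold change in cKO versus ctrl was 0.02 for the 1068 genes with spans under 10 kb, 0.05 for the 1302 genes of 100 to 250 kb and 0.19 for the 139 genes of 500 to 1000 kb. The 27 other genes over 1000 kb had a median of 0.16. In cKO versus dKO the median went from −0.02 in the shortest bin to 0.19 and 0.18 in the last bins, and in litter 1 versus litter 2 from −0.09 to 0.19 and 0.20. In dKO versus ctrl the bins lay between −0.01 and 0.06. There the median fell from 0.06 under 10 kb to −0.01 at 100 to 250 kb. It did not fall further in the longer bins and was 0.04 over 1000 kb. The members, with medians of 0.27, 0.26, 0.29 and −0.02 in these comparisons, were beyond the medians of those bins in the first 3 of them.

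Of the 166 other protein-coding genes of 500 kb or more with a mean of 10 CPM or more, 122 had positive log2 fold changes in cKO versus ctrl, and 2 were called as higher and 1 as lower at an FDR below 0.05 in edgeR. Between litters, 37 of the 166 were called as higher in litter 1 and 5 as lower, against 277 and 242 of the 8884. The genes related to the members by family, a list of 83 of which 74 had a mean of 10 CPM or more, had a median log2 fold change of 0.15 in cKO versus ctrl over those 74. None of the 83 was called in any comparison of genotypes, with 16 higher and 3 lower at an unadjusted p below 0.05 in cKO versus ctrl. These were 21.6% and 4.05% of the 74, against 6.82% and 3.52% of all protein-coding genes at this level. The 3 lower ones were thus near the share of all genes.

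In litter 1 versus litter 2, 277 of the 8884 protein-coding genes with a mean of 10 CPM or more were called as higher and 242 as lower. Of the relatives, 10 were called at the same FDR below 0.05 in edgeR, 9 as higher and 1 as lower. The higher ones were the adhesion genes *Cntnap4*, *Cntn1*, *Cntn6* and *Cdh10*, the receptor phosphatase gene *Ptprk*, the synaptic organizers *Il1rapl2*, *Lrrtm3* and *Lrrtm4*, and *Dtna*, which encodes a dystrobrevin. *Lrrtm3* lies inside the member *Ctnna3* on the opposite strand. The lower one was *Ctnna1*, the alpha-catenin of epithelia.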

How the data were processed

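The data were 16 RNA-seq libraries with unique molecular identifiers (UMIs), made from the cortex of 15 mouse embryos at E15.5. Per the submitters' processing notes, reads were demultiplexed with bcl2fastq 2.17, trimmed with cutadapt 1.13, aligned to mm10 with STAR 2.5.2a, deduplicated with UMI-tools 0.5.3, counted per gene with HTSeq 0.6.1p1 and tested with edgeR 3.18.1. The authors deposited whole counts per gene and library without normalization. The feature type and the annotation release used for counting are not given in the sources used here. The 5 summary lines of each file were left out, and libraries S2 and S2b of 1 mouse were summed. Symbols and coordinates, counted from 1, are from GENCODE M21 (GRCm38), which matched 51633 of the 51912 identifiers.

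Each comparison was fitted over all listed genes, with the mice compared only, in R 4.3.3 with edgeR 4.0.16 (TMM, estimateDisp, glmFit, glmLRT, no covariate), and the FDR is that of Benjamini and Hochberg over all of them. The files hold counts, for which the likelihood ratio test follows the study's methods, and the quasi-likelihood F test was an alternative. CPM were scaled by TMM over all 15 mice, and mean log2 CPM used a prior count of 2. Two-sided exact permutation tests compared mean CPM of single genes over mice. Values without a test are descriptions. In the mouse with the fewest counts, 3 counts were 7.50 CPM before TMM. UMIs remove PCR copies, and this floor covers counting error only.

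The members, their roles, the 83 relatives and the marker lists were chosen with earlier results of these data known. Genes given with values are members at an FDR below 0.05 in a comparison of genotypes, the 3 highest and 3 lowest log2 fold changes in each, the 3 highest and 3 lowest levels per kb in ctrl, the longest member and the 4 IgLON genes. Further members were named after their values were seen, as groups that do not overlap or as calls between litters.

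Litters, from the labels, were used as the pairing of mice. The mean correlation of deviations from the group means was 0.06 over 22 pairs of littermates and −0.10 over 83 other pairs. The alternatives were other tests (DESeq2 1.42.0), size factors, filters, covariates, subsets of mice and libraries, and leaving out each mouse. The comparison of litters with its alternatives, the fit without mice 5 and 7 and the members without *Cntnap5a* were chosen after seeing the data. The fit was tested on simulated data with known changes. Plots were made in Python 3.11.15 (matplotlib 3.10.9).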

Additional observations from a re-analysis of the deposited data

Results flagged for a closer look

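For the members given with values, and for the members' share of counts and mean log2 CPM, each group of 4 or more mice was examined. Of these 60 groups, 8 had a mouse far from the rest of its group, where chance gives about 1 in 20. The groups share the same mice and many of the genes were picked for extreme values. That rate is therefore only a rough guide. In cKO these were mouse S2 for *Fam135b*, at 88.85 CPM against 153 to 160.5 CPM in the others, and for *Dpp10*, at 307.7 CPM against 486.4 to 499.6 CPM. In ctrl, mouse 6 was far from the rest for *Cntnap5a*, at 194.1 CPM against 109.7 to 138.3 CPM, and for *Auts2*, at 8653 CPM against 7398 to 7904 CPM. Mouse 2 was so for *Ctnna3*, at 38.63 CPM against 8.47 to 21.01 CPM, and S1 for *Cntn4*, at 146.1 CPM against 74.7 to 95.98 CPM. In dKO, mouse F7 was far from the others for *Cntnap5a*, at 252.2 CPM against 148.8 to 165.8 CPM, and for *Negr1*, at 1667 CPM against 1151 to 1197 CPM.

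The cKO effect on *Cntnap5a* differed between litters 2 and 1 by 7.2464 on the log2 scale, as the term for this difference in an edgeR fit. It rests on 4 and 5 counts in mice 5 and 7 and on the single cKO mouse of litter 2, and the gene was picked out for this pattern, so the term describes the values and is no test of them.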

How the results depend on the processing

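The number of members called in cKO versus ctrl, 3, depended on the setting. It was 14 with the quasi-likelihood F test, 1 without TMM or with batch as a covariate, and 0 with wild-type ctrl mice only, in batch 1 only or without mice 5 and 7. Leaving out each mouse in turn gave 0 to 12 members. In dKO versus ctrl, DESeq2 called 1 and leaving out mice gave 0 to 0. In cKO versus dKO, the quasi-likelihood F test called 1 and leaving out mice gave 0 to 1. Between litters 1 and 2, 17 members were called, 5 with ctrl mice only, and 8 to 19 when each mouse was left out. The causes were not tested, except that subsets hold fewer mice.

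With litter as a replicate block, 3 members were again called in cKO versus ctrl, where *Xkr4* was lost (FDR 0.58 in edgeR) and *Cntnap5a* gained, and the median log2 fold change was 0.13 instead of 0.27. The pairing changed no other call of a member given with values in the comparisons of genotypes.

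The median log2 fold change of the members was 0.22 to 0.35 in cKO versus ctrl when each mouse was left out, −0.13 to 0.06 in dKO versus ctrl, 0.20 to 0.40 in cKO versus dKO and 0.25 to 0.34 between litters. The log2 fold change of *Cntnap5a* between litters, −2.66, turned to 0.32 with ctrl mice only and lay between −4.33 and 0.33 when each mouse was left out, the highest without cKO mouse S2. The exact permutation tests of the 18 members given with values had a p below 0.05 in 6 to 11, 1 to 5 and 1 to 3 of them in the 3 comparisons when each mouse was left out. Without TMM this held for 0 of them in cKO versus dKO. Many of these members were picked for their fold changes in the same comparisons. The numbers therefore show only how the tests moved with the setting and are no separate evidence. Without TMM, the median of all genes in cKO versus ctrl moved by −0.09. The lowest totals were in ctrl and dKO mice, which limits how small a difference could be seen at low levels, as for *Ctnna3*.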
